A study of Mus musculus with 24 samples.

Results

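The outer hair cell and calcium buffer genes are 8 of the 24454 genes in the counts table, taken by symbol: Slc26a5, Strc, Chrna9, Chrna10, Ocm, Calb1, Calb2 and Pvalb. All 8 had enough counts to be tested, among 16317 genes that did. Organs of Corti (OCs, the sensory epithelium of the cochlea) were dissected from male and female C57BL/6N mouse pups at an age of 5 days and first rested for 24 h in medium with penicillin and fetal calf serum. Fresh medium then held no drug (CTRL), gentamicin at 50 μM (GM), pioglitazone at 10 μM (PIO) or the pair of drugs together (PIO+GM), and explants were collected after 6 or 24 h. Gentamicin is an aminoglycoside that damages hair cells, and pioglitazone activates PPAR-γ, a nuclear receptor. There were 8 groups of 3 libraries, numbered 1 to 3 in the labels and each made from 6 pooled OCs. The labels do not say whether the 3 libraries of a group came from separate litters, so p-values measure the spread between these libraries.

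Outer hair cells amplify sound by changing length. Their motor is prestin, encoded by Slc26a5, and stereocilin, encoded by Strc, joins the tips of their stereocilia to each other and to the tectorial membrane. Efferent nerve fibers inhibit these cells through a nicotinic receptor built from the subunits that Chrna9 and Chrna10 encode, which lets calcium in. Calcium is bound in the cytoplasm by mobile buffers with EF-hand loops: oncomodulin (Ocm), a parvalbumin typical of outer hair cells, calbindin (Calb1), calretinin (Calb2), which inner hair cells and neurons also hold, and parvalbumin (Pvalb), found in inner hair cells, neurons and fast muscle.

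At 24 h, each of the 8 genes was lower with gentamicin than without drugs in each of the 3 pairs of libraries with the same number, as 16% of all genes were. The ratios were lowest for Slc26a5 and Ocm, at 12% to 33% of CTRL. With library number at each time as a block over all 24 libraries, Slc26a5 passed the test, as 0.0735% of all genes did. Without the block no gene of the 8 did. With pioglitazone added to gentamicin, 0 of the 8 genes passed the test against gentamicin alone (0.11% of all genes did), and the fitted values of 7 were lower (49.9% of all genes). Over culture time, with the 4 treatments averaged, 4 of the 8 genes (Pvalb, Calb2, Chrna9 and Slc26a5) were lower at 24 h than at 6 h, as 30.7% of all genes were (62.7% passed in either direction). Of these calls that of Slc26a5 was lost in 17 of 24 fits that left out a library. In the drug groups this time was also the time of exposure. Within CTRL, without drugs, 0 of the 8 genes passed (27.9% of all genes did). The fitted value of Slc26a5 was above 0 there (0.25, SE 0.84) and below 0 in each drug group.

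The stretches upstream of transcription starts are shown for Slc26a5 with Ocm and for Strc with Chrna10, pairs that followed each other over the 24 libraries (correlations of log2 CPM 0.922 and 0.856) more closely than Slc26a5 followed Strc (0.582), a gap seen at 6 h (0.203 for Slc26a5 with Strc) more than at 24 h (0.836). They are RefSeq sequences on build GRCm38.p6, each with the 200 bases before a transcript start on the strand of the gene. The starts listed for Strc, Chrna9 and Chrna10 lie inside the gene spans given further on, so these are starts of shorter transcripts, and the window of Ocm overlaps its span in part. Capitals mark E-boxes (CANNTG, which reads the same on both strands), the motif bound by basic helix-loop-helix factors such as the hair cell factor Atoh1.
Slc26a5, chr5:21865605-21865804, minus strand: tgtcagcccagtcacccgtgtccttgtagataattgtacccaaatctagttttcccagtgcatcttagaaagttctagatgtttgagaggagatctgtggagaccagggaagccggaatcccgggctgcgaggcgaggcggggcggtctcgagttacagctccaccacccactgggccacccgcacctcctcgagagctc
Ocm, chr5:144050610-144050809, minus strand: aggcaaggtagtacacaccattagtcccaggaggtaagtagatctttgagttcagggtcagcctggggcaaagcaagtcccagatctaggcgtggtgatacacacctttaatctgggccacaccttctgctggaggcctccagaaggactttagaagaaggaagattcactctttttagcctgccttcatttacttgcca
Strc, chr2:121380941-121381140, minus strand: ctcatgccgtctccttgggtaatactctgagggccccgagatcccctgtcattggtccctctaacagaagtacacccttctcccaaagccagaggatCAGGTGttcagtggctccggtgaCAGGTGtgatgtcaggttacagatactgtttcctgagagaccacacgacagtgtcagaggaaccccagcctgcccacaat
Chrna10, chr7:102116714-102116913, minus strand: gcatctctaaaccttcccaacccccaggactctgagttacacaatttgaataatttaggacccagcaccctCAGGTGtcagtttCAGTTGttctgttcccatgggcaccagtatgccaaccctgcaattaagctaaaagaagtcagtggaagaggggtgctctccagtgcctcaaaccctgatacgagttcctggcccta
Strc and Chrna10 held 2 E-boxes each, as did Chrna9, the windows of Slc26a5 and Ocm held 0, and of the 2 windows of Pvalb 1 held 1 and the other 0. The counts did not follow the correlations throughout. Over the 24 libraries Chrna9 was closer to Ocm (0.89) and Slc26a5 (0.823) than to Strc (0.633) or Chrna10 (0.465). Over 32851 mouse promoter windows of this length, 58.2% held an E-box. A match is a run of letters and not a measured binding site. Of the other letters searched on both strands, TATAAA (in 9.96% of all windows) and TAATTA (in 3.73%) occurred in none of the windows of the 6 genes with an entry, and GGGAA (in 48.7%) occurred in those of Slc26a5, Chrna9 and Chrna10. The table had no entry for Calb1 and Calb2.

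The buffers are shown by the coding bases of their calcium-binding loops in Ocm and Pvalb, which are close relatives with different courses in these data. The loops are 36 bases long, from GENCODE transcripts on GRCm38, with the first and last codon, which help to hold the ion, in capitals.
Ocm, codons 52 to 63: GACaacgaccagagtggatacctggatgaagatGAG
Pvalb, codons 52 to 63: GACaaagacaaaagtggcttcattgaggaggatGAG
Ocm, codons 91 to 102: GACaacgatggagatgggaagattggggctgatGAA
Pvalb, codons 91 to 102: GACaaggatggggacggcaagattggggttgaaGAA
Ocm and Pvalb have 2 such loops at the same codons, Calb1 has 4 and Calb2 has 5. The aligned coding sequences were identical at 59.3% of bases for Ocm and Pvalb, at 65.1% for Calb1 and Calb2 and at 63.6% for Chrna9 and Chrna10. No stretch of 76 bases, the read length, was shared between any of these pairs.

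The genes lie at chr5:21809001-21865604 (Slc26a5), chr2:121363248-121381370 (Strc), chr5:65934854-65977486 (Chrna9), chr7:102111260-102116971 (Chrna10), chr5:144019807-144050640 (Ocm), chr4:15881264-15906709 (Calb1), chr8:110142526-110168212 (Calb2) and chr15:78191112-78206400 (Pvalb) on GRCm38. Chrna10 shares 1025 exonic bases with Art1 on the opposite strand, and 35.9% of the 76-base windows of its transcript also lie in Art1. Strc shares 10 exonic bases with Ckmt1. Whether the counting used the strand is not stated. Art1, an ADP-ribosyltransferase gene, had between 0 and 0.744 CPM (counts scaled to the size of the library) in all 24 libraries, where Chrna10 had 5.08 to 34.2.

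Libraries held 7211357 to 15548856 counts on genes, with a median of 12538495. At these depths 3 counts, the lowest level taken as measurable, are 0.193 to 0.416 CPM, which covers counting error only. Hair cell genes (24 of the 25 listed, Myo7a and Otof among them) summed to 776 to 1585 CPM and supporting cell markers to 596 to 1473 CPM, so the labelled tissue was present. Neuron markers summed to 132 to 557 CPM and skeletal muscle markers to 13.8 to 106 CPM, so these are mixed tissues. In such bulk samples, fewer cells of a type and less RNA per cell cannot be told apart.

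The 4 libraries numbered 2 at 24 h stood apart for Slc26a5 and Ocm. Slc26a5 was 9.26-fold lower in the CTRL library numbered 2 than in the mean of the other CTRL libraries, 18.5-fold lower in GM, 7.19-fold lower in PIO and 8.64-fold lower in PIO+GM. For Ocm the ratios were 7.77-fold, 8.07-fold, 12.4-fold and 35.5-fold. Chrna9 was 1.86-fold to 3.93-fold lower in these libraries. From the list of general hair cell genes 4 are given as examples, and each differed less than Slc26a5 and Ocm did. Relative to the mean of the other libraries of its treatment, the library numbered 2 had a ratio of 0.788 to 1.08 for the myosin gene Myo7a, 0.48 to 0.759 for the transcription factor gene Pou4f3, 0.507 to 0.807 for the synaptic gene Otof and 0.256 to 0.489 for the mechanotransduction gene Tmc1. The neurofilament gene Nefl was at 67.7 CPM in the CTRL library numbered 2 against 13.8 and 10.1 CPM, and like 5 other neuron markers of the 10 it was highest in number 2 in all 4 treatments. Of the others, Syt1 was lowest in number 2 in all 4, at 162 CPM in CTRL against 218 and 185.5 CPM, and Gap43, Snap25 and Tubb3 were not highest there in each treatment. The part of neurons in these differences was not tested.

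**Figure D1:**
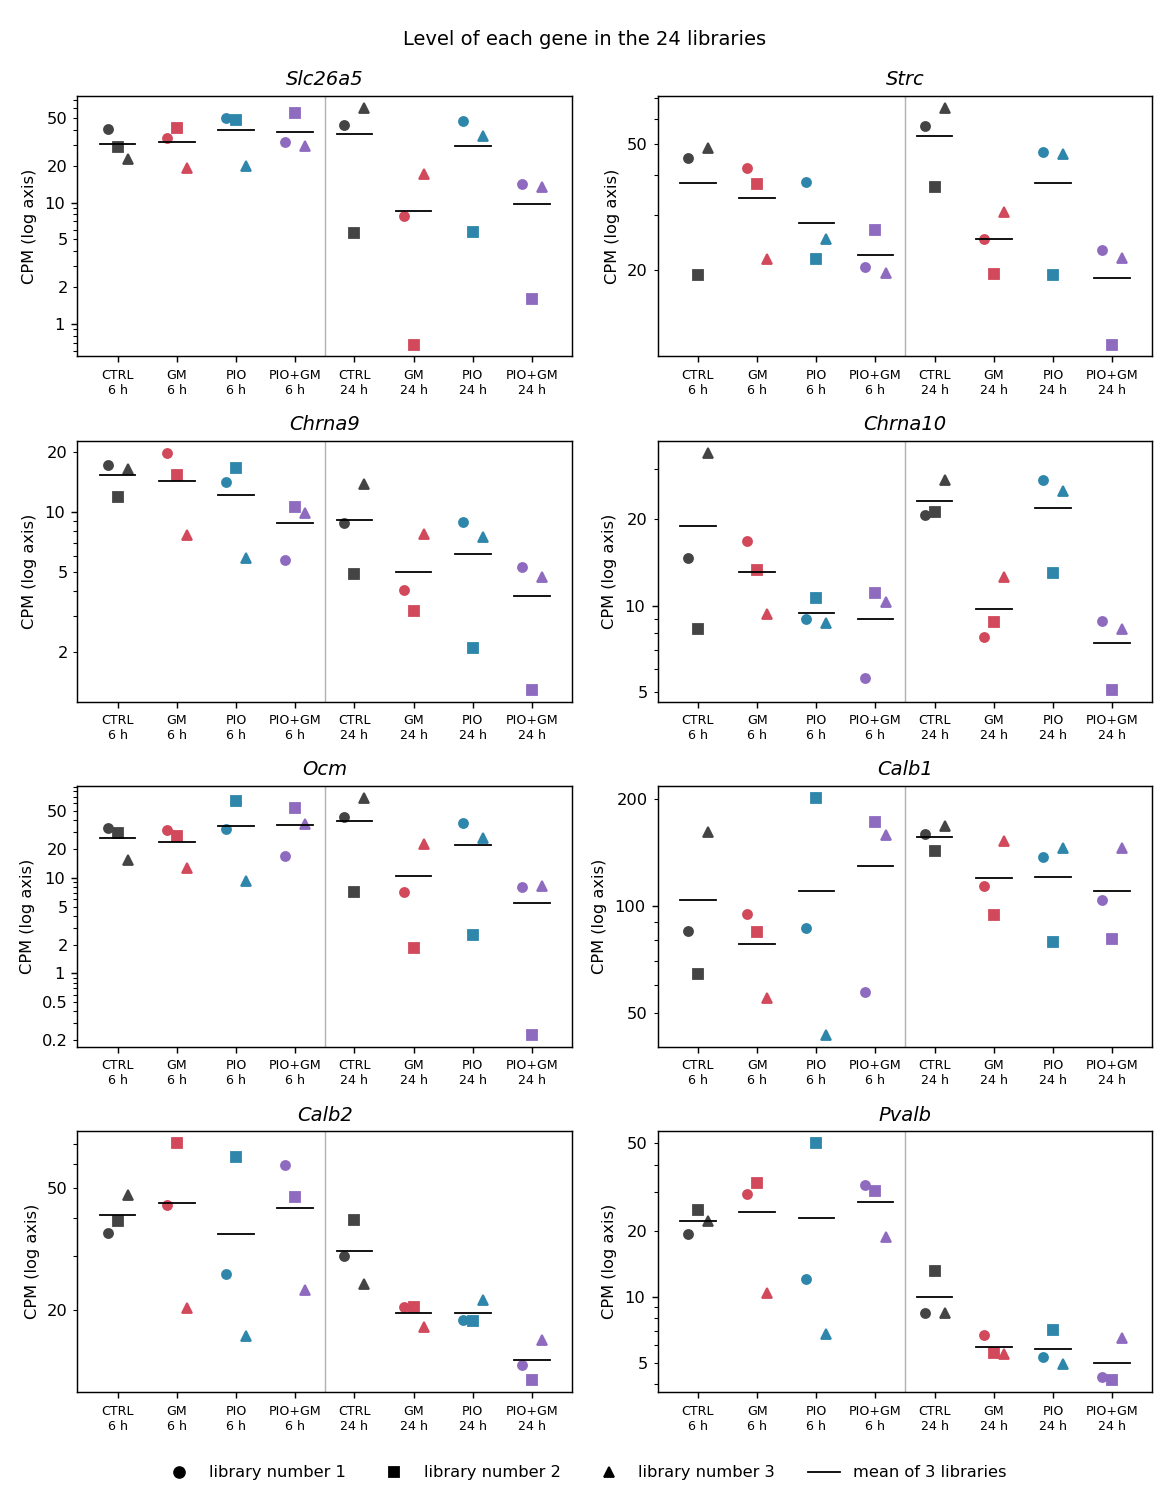
Level of each gene in CPM (counts scaled to library size, log axis) in all 24 libraries, by treatment at 6 h on the left of the grey line and at 24 h on the right, with a symbol for each library number and a line at the mean of 3. Within each treatment at 24 h, Slc26a5 and Ocm are lowest in the library numbered 2, and Pvalb lies between 4.17 and 13.1 CPM at 24 h and between 6.73 and 50.1 CPM at 6 h.

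Levels per length, in CPM per kilobase of exon (RPKM), can be set side by side between genes. The median RPKM over the 24 libraries was 37.9 for Calb1, 33.01 for Ocm, 16.6 for Calb2, 10.4 for Pvalb, 6.26 for Slc26a5, 4.50 for Strc, 4.31 for Chrna10 and 4.13 for Chrna9. The buffers thus held the 4 highest of these pooled medians and the receptor subunits the lowest. Within single groups the order could differ. In PIO at 24 h the mean RPKM was 8.71 for Chrna10 and 6.39 for Pvalb, and in CTRL at 6 h it was 7.58 for Chrna9 and 6.62 for Slc26a5. The order also rests on the deposited gene lengths, which for Slc26a5 is 4616 bases against 3072 exonic bases in GENCODE. Ocm spanned the widest range, 300-fold between its lowest library (PIO+GM number 2 at 24 h, with 3 counts) and its highest (CTRL number 3 at 24 h, with 780 counts), and Calb1 the narrowest, 4.62-fold. Ordering the 8 group means of each gene gave 56 neighbouring pairs, and the libraries of 52 of them overlapped. Of such pairs 7.14% did not overlap, and 5.38% over all genes tested. The 4 pairs without overlap belonged to Calb2 (CTRL above GM at 24 h, PIO above PIO+GM at 24 h) and Pvalb (CTRL at 6 h above CTRL at 24 h, and this above GM at 24 h).

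Gentamicin against CTRL at 24 h asks what the drug left of the outer hair cell transcripts. Slc26a5 stood at 43.6, 5.62 and 60.4 CPM in the CTRL libraries numbered 1, 2 and 3 and at 7.77, 0.676 and 17.2 CPM in the GM libraries. The groups overlapped, because the CTRL library numbered 2 lay below the GM libraries numbered 1 and 3, but within each number the GM library was lower. The GM library held 17.8%, 12% and 28.5% of the CTRL level. In edgeR's quasi-likelihood test across all genes, Slc26a5 did not pass (log2 fold change -2.09, SE 0.89, unadjusted p = 0.0299, adjusted p = 1), and with the replicate block it did (log2 fold change -2.21, SE 0.30, adjusted p = 0.0105).

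Strc, the stereocilin gene, was at 57.1, 36.6 and 65.1 CPM in CTRL and 25.1, 19.5 and 30.6 CPM in GM. All 3 GM libraries lay below all 3 CTRL libraries (log2 fold change -1.08, SE 0.38; edgeR, unadjusted p = 0.00995, adjusted p = 1). Ckmt1, which overlaps it by a few bases, was at 9.76, 8.39 and 9.6 CPM in CTRL and 9.34, 5.07 and 11.3 CPM in GM. The log2 fold change of Ckmt1 was -0.11 (SE 0.36).

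Chrna10 of the efferent receptor was at 20.7, 21.3 and 27.6 CPM in CTRL and 7.77, 8.78 and 12.6 CPM in GM, again with no overlap (log2 fold change -1.25, SE 0.40; edgeR, unadjusted p = 0.00516, adjusted p = 1). Art1, the gene on its other strand, was at 0.176, 0.661 and 0.349 CPM and 0.744, 0.405 and 0.334 CPM in these libraries, and the groups overlapped. The other subunit gene, Chrna9, was at 8.79, 4.89 and 13.7 CPM in CTRL and 4.05, 3.17 and 7.74 CPM in GM, and the groups overlapped (log2 fold change -0.86, SE 0.55; edgeR, unadjusted p = 0.136, adjusted p = 1).

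Of the buffers, Ocm was at 42.8, 7.13 and 68.1 CPM in CTRL and 7.03, 1.82 and 22.4 CPM in GM. As for Slc26a5, the groups overlapped and each GM library was below the CTRL library of its number, at 16.4%, 25.6% and 32.9% (log2 fold change -1.91, SE 0.99; edgeR, unadjusted p = 0.0688, adjusted p = 1). Calb2 was at 30, 39.4 and 24.3 CPM in CTRL and 20.4, 20.3 and 17.6 CPM in GM. Pvalb was at 8.44, 13.1 and 8.47 CPM in CTRL and 6.7, 5.54 and 5.47 CPM in GM. Both had GM libraries that lay wholly below CTRL, and neither was near the threshold (log2 fold change -0.69, SE 0.42 for Calb2 and -0.77, SE 0.52, for Pvalb). Calb1, at 159, 142 and 168 CPM in CTRL and 114, 94 and 152 CPM in GM, moved least (log2 fold change -0.38, SE 0.46).

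A replicate block was fitted because CTRL and GM libraries of equal number deviated together in every pair. The block was library number at each time over all 24 libraries, so it also joined the PIO and PIO+GM libraries. Some of those did not deviate together, as GM and PIO numbered 1 at 24 h (correlation -0.025). Of the 8 genes, 0 passed the threshold of an adjusted p of 0.05 by edgeR without the block, 3 had an unadjusted p under 0.05, and 0 passed by DESeq2. Of all genes tested, 0.0123% passed by edgeR. With the replicate block 1 of the 8 passed (Slc26a5), and 0.0735% of all genes. The fitted change was below 0 for 8 of the 8, and for 50.8% of all genes. The median was -0.97, and -0.0025 for all genes. GM was lower in all 3 pairs for 8 of the 8 genes, that is in 24 of 24 pairs, and for 16% of all genes. All 3 GM libraries lay below all 3 CTRL libraries for 4 of the 8 genes (Strc, Chrna10, Calb2 and Pvalb) and for 3.06% of all genes. An exact permutation test of 3 against 3 libraries cannot give a p under 0.1. Without the 4 libraries numbered 2, the log2 fold change of Slc26a5 was -2.04 and its adjusted p by edgeR was 0.795. Leaving out 1 library without the block, it lay between -3.13 (without GM number 3) and -1.51 (without CTRL number 3).

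**Figure D2:**
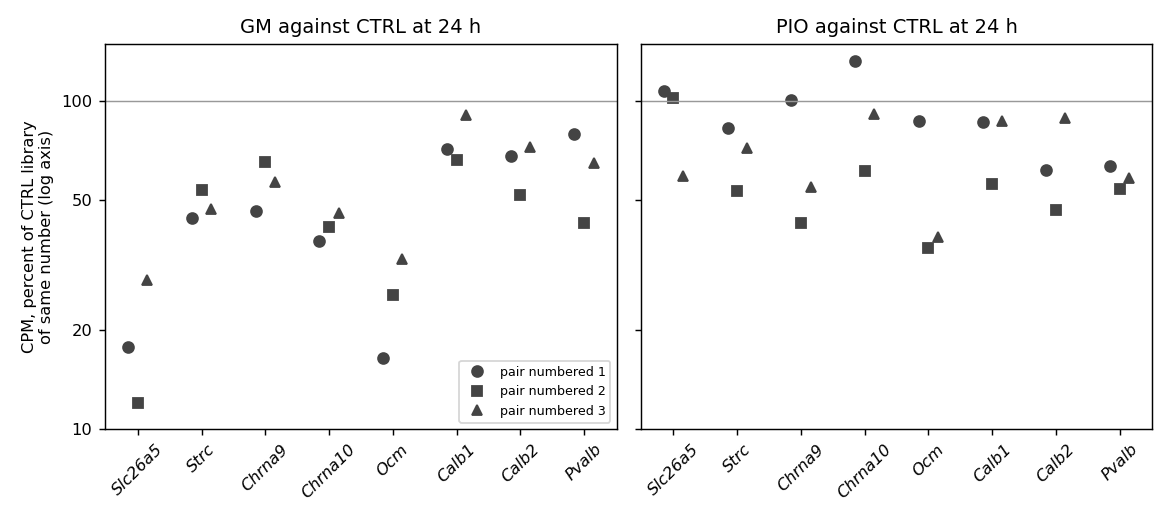
CPM of each gene at 24 h in a GM library (left) or a PIO library (right) as a percentage of the CTRL library with the same number (log axis), 1 point for each of the 3 pairs, with a line at 100%. All 24 points on the left lie below the line, and 20 of 24 do on the right.

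The lists of other genes at 24 h with gentamicin give the setting. Of 5 other outer hair cell genes tested, Ikzf2 and Bcl11b among them, 0 passed by edgeR or DESeq2 and 0 had an unadjusted p under 0.05, and their median log2 fold change was -0.19. Of 24 general hair cell genes 0 passed by either tool and 4 had an unadjusted p under 0.05, with a median of -0.22 and 15 lower. Espnl, a stereocilia gene, had the lowest p of them (log2 fold change -1.03, SE 0.34; edgeR, unadjusted p = 0.00677, adjusted p = 1). Summed hair cell CPM were 1294 to 1585 in CTRL and 1076 to 1343 in GM, and these ranges overlapped. Of 9 supporting cell markers 0 passed by either tool and 1 had an unadjusted p under 0.05, the Notch target Hes5 (median -0.31). Neuron markers, which bear on Calb2 and Pvalb, had a median of -0.20 with 0 of 10 past the test by either tool and 0 with an unadjusted p under 0.05, and summed to 235 to 416 CPM in CTRL and 236 to 300.2 CPM in GM. Muscle markers summed to 24.2 to 29.9 CPM and 25.1 to 35.9 CPM, and the muscle genes Ckm, Myh3, Myl1 and Tnni2 were at 0 in at least 1 of the 24 libraries. The part of these cell types in the levels of Calb2 and Pvalb was not tested.

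Of 18 other genes for calcium pumps, channels and binding proteins, 0 passed by edgeR or DESeq2 and 2 had an unadjusted p under 0.05 (median -0.12, 14 lower). The lowest p was that of Atp2a3, a pump that moves calcium into the endoplasmic reticulum (log2 fold change -1.36, SE 0.42; edgeR, unadjusted p = 0.00402, adjusted p = 1). With the replicate block Atp2a3 passed as the 1 gene of these 18 (-1.42, adjusted p = 0.0126). Of 7 efferent synapse partners tested 0 passed by either tool and 1 had an unadjusted p under 0.05, the muscle-type receptor subunit gene Chrna1 (-1.24, SE 0.49; median of the list -0.07). The 5 genes of the tectorial membrane and its attachment had fitted changes between -0.23 and -0.06, with 0 past the test by either tool and 0 with an unadjusted p under 0.05.

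Pioglitazone alone at 24 h left Slc26a5 at 46.7, 5.73 and 35.6 CPM, which was 107%, 102% and 59% of the CTRL library of the same number. Chrna10 was at 27.4, 13 and 25.2 CPM and Strc at 47.2, 19.4 and 46.6 CPM, both overlapping CTRL. Ocm was at 37.1, 2.54 and 26.1 CPM, below the CTRL library of its number in all 3 pairs (log2 fold change -0.84, SE 0.95). Calb2 was at 18.5, 18.3 and 21.5 CPM and Pvalb at 5.33, 7.03 and 4.94 CPM. All PIO libraries lay below all CTRL libraries for these 2 genes, and for 10.6% of all genes. Of the 8 genes, 0 passed by edgeR and by DESeq2, and 0 had an unadjusted p under 0.05, against 0.153% of all genes past the threshold. The fitted change was below 0 for 8 of the 8 and for 51.4% of all genes, with medians of -0.52 and -0.0096. Lower levels in all 3 pairs were found for 5 of the 8 genes, and for 25.2% of all genes. Of 10 neuron markers 9 were lower (median -0.36) and 1 passed, the growth cone gene Gap43 (-1.27, SE 0.23; edgeR, adjusted p = 0.0293), and the part of neurons in the levels of Calb2 and Pvalb was not tested.

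With both drugs at 24 h, Slc26a5 was at 14.1, 1.59 and 13.4 CPM, Strc at 23.2, 11.7 and 21.9 CPM and Chrna10 at 8.8, 5.08 and 8.26 CPM. Strc and Chrna10 lay below every CTRL library, as Calb2 (13.2, 11.7 and 15.9 CPM) and Pvalb (4.3, 4.17 and 6.46 CPM) did, making 4 of the 8 genes and 10.2% of all genes. Ocm was at 7.94, 0.227 and 8.18 CPM, and the library numbered 2 held 3 counts of it. Chrna9 was at 5.29, 1.29 and 4.74 CPM and Calb1 at 104, 80.7 and 146 CPM, and these overlapped CTRL.

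Against CTRL the largest fitted change was that of Ocm (log2 fold change -2.84, SE 1.04; edgeR, unadjusted p = 0.013, adjusted p = 0.325). Slc26a5 followed (log2 fold change -1.91, SE 0.88; unadjusted p = 0.0437, adjusted p = 0.532). Of the receptor subunit genes, Chrna10 had the lowest p of the 8 genes (log2 fold change -1.65, SE 0.41; unadjusted p = 0.000617, adjusted p = 0.0775) and Chrna9 a higher one (log2 fold change -1.26, SE 0.56; unadjusted p = 0.0368, adjusted p = 0.502). Strc was near the threshold (log2 fold change -1.48, SE 0.38; unadjusted p = 0.000984, adjusted p = 0.0955), and Calb2 was further from it (log2 fold change -1.20, SE 0.43; unadjusted p = 0.0109, adjusted p = 0.299). By edgeR without the block 0 of the 8 genes passed, 6 had an unadjusted p under 0.05, and DESeq2 called 2, Strc and Chrna10. With the replicate block 4 passed (Slc26a5, Ocm, Strc and Chrna10), as 1.94% of all genes did. The libraries numbered 1 hardly deviated together here (correlation 0.012), so this comparison was not taken as paired. Of all genes 0.478% passed by edgeR and 1.61% by DESeq2. The median of the 8 was -1.37, and that of all genes was -0.00055.

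With both drugs the other lists were counted as well. Of 24 general hair cell genes 23 were below CTRL (median -0.50), 0 passed by edgeR, 7 had an unadjusted p under 0.05 and DESeq2 called 3 (Lhx3, Espnl and Lhfpl5). Of 18 other calcium genes 16 were lower (median -0.24), 0 passed by edgeR, 6 had an unadjusted p under 0.05 and DESeq2 called 2 (Cacnb2 and Atp2a3). The medians were -0.35 for the 5 other outer hair cell genes (5 lower), -0.56 for the 7 efferent synapse partners (6 lower), -0.16 for the 5 tectorial membrane genes (5 lower) and -0.23 for the 9 supporting cell markers (7 lower), with 0 past the test by edgeR or DESeq2 and 1, 2, 0 and 0 with an unadjusted p under 0.05. The 6 muscle markers went the other way in 4 cases (median 0.37), with 0 past the test by either tool, 1 with an unadjusted p under 0.05, and summed CPM of 29.4 to 44.4 against 24.2 to 29.9 in CTRL. All 10 neuron markers were lower (median -0.75) and Gap43 was the 1 that passed (-1.05, SE 0.23; edgeR, adjusted p = 0.0478). Their summed CPM was 221 to 260.2 against 235 to 416 in CTRL, and the part of neurons and muscle in the levels of Calb2 and Pvalb was not tested.

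Against gentamicin alone, a comparison that shares its GM libraries with the first and asks what pioglitazone added, the fitted changes at 24 h lay between -0.94 (Ocm, SE 1.02) and 0.18 (Slc26a5, SE 0.89). By edgeR and by DESeq2 0 of the 8 genes passed, and 0 had an unadjusted p under 0.05, against 0.11% of all genes past the threshold. The fitted change was below 0 for 7 of the 8 genes and for 49.9% of all genes. Calb2 was the gene whose PIO+GM libraries all lay below the GM libraries (log2 fold change -0.51, SE 0.43), which 8.57% of all genes did. The effect of pioglitazone with gentamicin minus that without it ranged from -0.31 (Chrna10) to 0.55 (Pvalb), and 0 of the 8 and 0% of all genes passed by edgeR or DESeq2, with 0 of the 8 at an unadjusted p under 0.05.

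**Figure D3:**
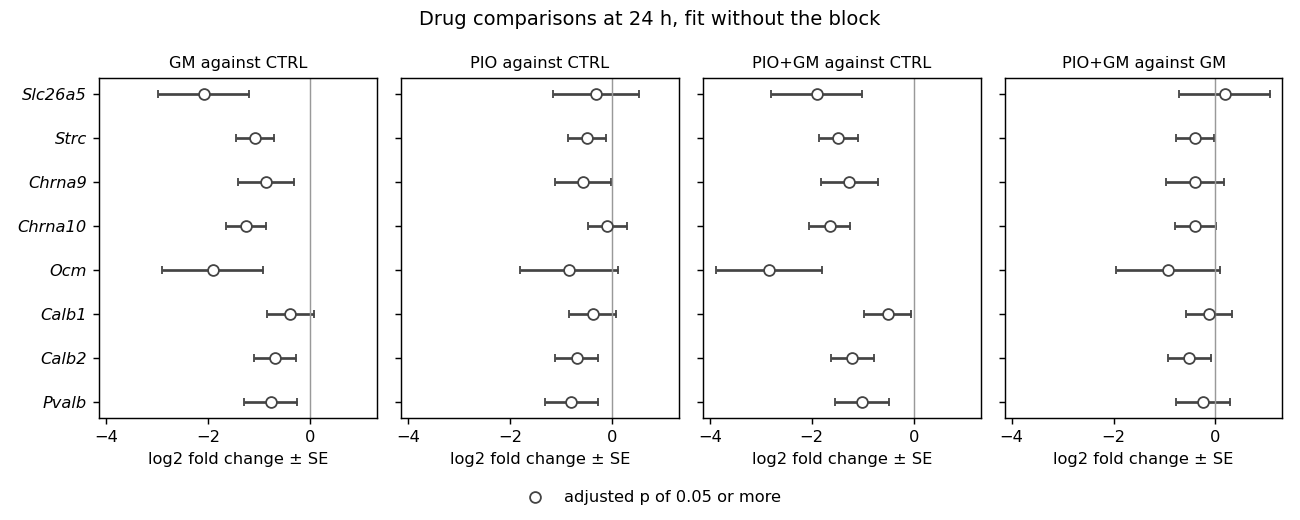
Log2 fold change with its standard error (SE) for the 8 genes in the 4 drug comparisons at 24 h, from the fit to 24 libraries without the block, 3 libraries a group. The points for GM, PIO and PIO+GM against CTRL are all below 0, and no point has an adjusted p under 0.05.

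At 6 h the levels overlapped between treatments for nearly every gene. Slc26a5 was at 40.5, 28.5 and 22.8 CPM in CTRL, 33.9, 40.9 and 19.2 CPM in GM, 49.8, 47.9 and 20.2 CPM in PIO and 31.4, 54.4 and 29.3 CPM in PIO+GM. Ocm was at 33.3, 29.5 and 15.4 CPM, 31.5, 27.6 and 12.7 CPM, 32.4, 62.9 and 9.19 CPM and 16.8, 53 and 36.2 CPM in the same order. For both genes the GM libraries overlapped the CTRL libraries. With gentamicin 0 of the 8 genes passed by edgeR or DESeq2 and 0 had an unadjusted p under 0.05, where 0% of all genes passed, and the median was -0.11. With pioglitazone 0 of the 8 passed by either tool (0.331% of all genes by edgeR) and 1 had an unadjusted p under 0.05. This was Chrna10, at 8.95, 10.6 and 8.68 CPM against 14.6, 8.29 and 34.2 CPM in CTRL (log2 fold change -1.02, SE 0.40; edgeR, unadjusted p = 0.0196, adjusted p = 0.242). Without the CTRL library numbered 3, the highest of all 24, the estimate was -0.29.

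With both drugs at 6 h, 0 of the 8 genes passed against GM by edgeR or DESeq2 and 0 had an unadjusted p under 0.05 (1.32% of all genes passed by edgeR). Against CTRL 0 passed by either tool and 1 had an unadjusted p under 0.05 (2.67% of all genes passed). It was Chrna10 again, at 5.59, 11.1 and 10.3 CPM (log2 fold change -1.09, SE 0.40; edgeR, unadjusted p = 0.014, adjusted p = 0.123). Its estimate was -0.36 without the CTRL library numbered 3, and it passed (-1.45, adjusted p = 0.0482) without the CTRL library numbered 2, in a fit where 2.3% of all genes passed. All 3 PIO+GM libraries lay below all CTRL libraries for 1 of the 8 genes, Chrna9, with 5.76, 10.6 and 9.86 CPM against 17.2, 11.9 and 16.4 CPM, and for 8.24% of all genes. The gentamicin effect at 24 h minus that at 6 h was tested as an interaction, and 0 of the 8 and 0% of all genes passed by edgeR or DESeq2, with 0 of the 8 at an unadjusted p under 0.05. Its largest value was that of Slc26a5 (log2 fold change -2.12, SE 1.22; edgeR, unadjusted p = 0.0972, adjusted p = 1), so a difference between the times is not shown. The pioglitazone interaction at 6 h gave values from -0.37 (Chrna9) to 0.64 (Calb1), and 0 of the 8 and 0% of all genes passed by either tool, with 0 of the 8 at an unadjusted p under 0.05.

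**Figure D4:**
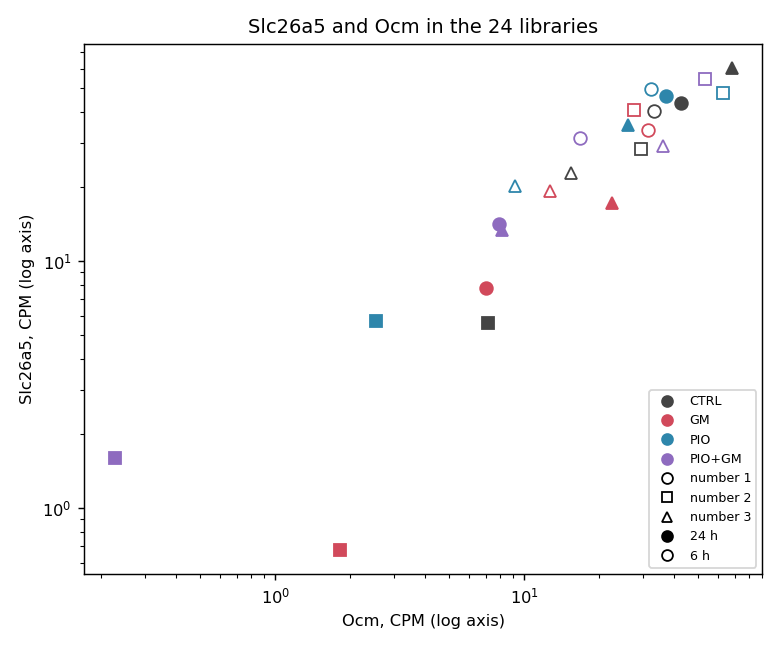
Slc26a5 against Ocm, both in CPM on log axes, in the 24 libraries, with colors for treatments, shapes for library numbers, and open symbols for 6 h and filled ones for 24 h. The 4 libraries numbered 2 at 24 h lie at the lower left, from 0.676 to 5.73 CPM of Slc26a5.

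Slc26a5 and Ocm followed each other across the libraries. Over the 24 libraries, which share treatments and library numbers, the Pearson correlation of their log2 CPM was 0.922. Within the 12 libraries at 6 h it was 0.857 and within the 12 at 24 h 0.915, and Ocm was the gene of all tested most like Slc26a5. Calb2 and Pvalb were at 0.927 over all libraries, 0.929 at 6 h and 0.885 at 24 h. At 24 h alone other pairs were closer, namely Ocm with Chrna9 (0.976), Ocm with Strc (0.939), Chrna9 with Strc (0.925) and Chrna10 with Strc (0.918). Pvalb and Slc26a5 were at 0.499 over all and 0.156 at 24 h. The genes most like Slc26a5 after Ocm were Atp2a3 (0.901) and Hsd17b7 (0.898), and those most like Ocm after Slc26a5 were Kcnh8 (0.916) and Ppp4r4 (0.909). Strc was most like Espnl (0.958), Fry (0.923) and Lfng (0.887), Chrna9 most like Npnt (0.935), Kcnh8 (0.914) and Ankrd22 (0.913), and Chrna10 most like B3gnt4 (0.896), Lhfpl5 (0.892) and Tafa3 (0.888). For the remaining buffers the genes were Muc15 (0.915), Slc15a2 (0.907) and Il1rapl1 (0.887) for Calb1, Unc80 and Cpne9 (0.910 each) for Calb2 after Pvalb, and Cpne9 (0.950), Map2 (0.950) and Hapln1 (0.948) for Pvalb. These are descriptions over libraries that share their conditions.

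Culture time was compared as 24 h against 6 h, which in the drug groups was also the time of exposure. Pvalb was at 19.3, 24.8 and 22.2 CPM in CTRL at 6 h and 8.44, 13.1 and 8.47 CPM at 24 h. Its levels at 6 h were 29.4, 32.9 and 10.3 CPM in GM, 12, 50.1 and 6.73 CPM in PIO and 32.2, 30.3 and 18.6 CPM in PIO+GM. Every 24 h library was below every 6 h library of its treatment in CTRL, GM and PIO+GM, while in PIO the ranges overlapped. Averaged over the 4 treatments Pvalb fell (log2 fold change -1.90, SE 0.26; edgeR, adjusted p = 3.83e-06), as did Calb2 (log2 fold change -1.03, SE 0.21; adjusted p = 0.000308), Chrna9 (log2 fold change -1.10, SE 0.28; adjusted p = 0.00179) and Slc26a5 (log2 fold change -1.005, SE 0.43; adjusted p = 0.048). Thus 4 of the 8 genes passed, all lower, where 62.7% of all genes passed in either direction and 30.7% lower. For Slc26a5 the fitted value was above 0 in CTRL (0.25, SE 0.84) and below 0 in the other 3 treatments. The call of Slc26a5 was lost in 17 of the 24 fits that left out a library (adjusted p 0.018 to 0.0844). It was kept without number 3 of GM or PIO at 6 h, number 3 of CTRL, GM or PIO+GM at 24 h, or number 1 of PIO or PIO+GM at 24 h, and without the 4 libraries numbered 2 at 24 h its log2 fold change was -0.50 (adjusted p = 0.0574).

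Calb2 at 6 h was at 35.7, 39.2 and 47.5 CPM in CTRL, 44.1, 70.3 and 20.3 CPM in GM, 26.1, 63.6 and 16.4 CPM in PIO and 59.8, 46.7 and 23.2 CPM in PIO+GM. The libraries at 6 h spread widely, as those of Pvalb did, and in GM, PIO and PIO+GM those numbered 3 were lowest. Neuron markers moved with these genes. Averaged over treatments, 8 of the 10 neuron markers were lower and 1 higher past the threshold, with a median of -1.09, and the synaptic gene Snap25 had 7.28, 66.2 and 7.02 CPM in PIO at 6 h, with its highest value in the library where Pvalb was highest. Their summed CPM was 132 to 557 at 6 h and 221 to 416 at 24 h, all 10 were above 0 in every library, and their part in the change of Pvalb and Calb2 was not tested. Slc17a8, a vesicular glutamate transporter gene of inner hair cells, fell too (-1.55, SE 0.24; edgeR, adjusted p = 1.49e-05). Of the 24 general hair cell genes 9 rose and Slc17a8 was the 1 that fell. Beside these counts and those of the other lists here, 32% of all genes rose and 30.7% fell past the threshold. The outer hair cell gene Bcl11b rose (0.94, SE 0.11; adjusted p = 4.47e-07), as did Ikzf2 (0.33, SE 0.12; adjusted p = 0.0221). Supporting cell markers rose in 6 of 9 cases and fell in 0, and of 6 muscle markers tested 3 rose and 2 fell.

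Among the other calcium genes, 11 of 18 passed in the averaged comparison, 4 higher and 7 lower, where 62.7% of all genes passed. S100b, a calcium-binding protein gene of supporting cells and glia, rose by 2.27 (SE 0.25), and Calm3, one of the calmodulin genes, by 0.75 (SE 0.06). Cabp1, a calcium sensor gene, fell by 1.62 (SE 0.32), Atp2b1, a pump gene of the plasma membrane, by 0.82 (SE 0.12), and Mcu, the mitochondrial calcium channel gene, by 0.90 (SE 0.09). Of the 7 efferent synapse partners 3 rose and 0 fell, against 32% of all genes that rose and 30.7% that fell, among them Kcnn2 (0.63, SE 0.15), the potassium channel that the efferent receptor's calcium opens. The receptor subunit gene Chrna9 fell, and Chrna10 gave 0.20 (SE 0.20; edgeR, adjusted p = 0.397). Of the 5 tectorial membrane genes 0 passed by edgeR or DESeq2, and 0 had an unadjusted p under 0.05.

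Within CTRL, 0 of the 8 genes passed by edgeR or DESeq2 and 1 had an unadjusted p under 0.05, where 27.9% of all genes passed. This was Pvalb (log2 fold change -1.14, SE 0.51; edgeR, unadjusted p = 0.0363, adjusted p = 0.101). Slc26a5, Strc, Chrna10, Ocm and Calb1 had fitted values above 0 in CTRL, from 0.25 to 0.59.

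Within GM, 2 of the 8 genes passed, both lower (24.2% of all genes passed): Pvalb (log2 fold change -2.03, SE 0.52; edgeR, adjusted p = 0.00818) and Calb2 (log2 fold change -1.21, SE 0.42; adjusted p = 0.043). The call of Calb2 was lost in 5 of the 6 fits that left out a GM library, all but that without the library numbered 3 at 6 h, and its value was -0.72 (adjusted p = 0.291) without the library numbered 2 at 6 h. Without the 4 libraries numbered 2 at 24 h the call of Calb2 was lost as well (-1.24, adjusted p = 0.117), so 1 of the 8 genes passed, and 16.2% of all genes in that fit. Chrna9 (log2 fold change -1.50, SE 0.55; unadjusted p = 0.0135, adjusted p = 0.0538) and Slc26a5 (log2 fold change -1.87, SE 0.89; unadjusted p = 0.0481, adjusted p = 0.131) did not pass, though Chrna9 did without the library numbered 3 at 6 h (-1.80, adjusted p = 0.0320) or at 24 h (-1.97, adjusted p = 0.0391). With the replicate block Chrna9 passed as well (-1.55; edgeR, adjusted p = 0.0436), so 3 of the 8 genes did, and 26.5% of all genes. DESeq2 also called 3 of the 8, and 28.2% of all genes.

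Within PIO, 2 of the 8 passed (28.9% of all genes). Pvalb fell (log2 fold change -1.98, SE 0.52; edgeR, adjusted p = 0.00905), but without the PIO library numbered 2 at 6 h, where it was at 50.1 CPM, the value was -0.69 (adjusted p = 0.230). Chrna10 rose (log2 fold change 1.22, SE 0.40; adjusted p = 0.0291), from 8.95, 10.6 and 8.68 CPM to 27.4, 13 and 25.2 CPM. The ranges did not overlap, and the call was lost in 5 of the 6 fits that left out a PIO library, all but that without number 2 at 24 h. Art1 was at 0.0877, 0.106 and 0.0724 CPM and 0.257, 0.13 and 0.215 CPM in these libraries, all 3 higher at 24 h, from 1 count each to 4, 2 and 3 counts.

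Within PIO+GM, 2 of the 8 passed (34.6% of all genes), Pvalb (log2 fold change -2.45, SE 0.53; edgeR, adjusted p = 0.00184) and Calb2 (log2 fold change -1.67, SE 0.43; adjusted p = 0.0058). Ocm was just outside the threshold (log2 fold change -2.69, SE 1.04; unadjusted p = 0.0176, adjusted p = 0.0507) and passed without the library numbered 1 at 6 h (-3.03, adjusted p = 0.0389). Slc26a5 (log2 fold change -1.99, SE 0.89; unadjusted p = 0.0368, adjusted p = 0.0876) and Chrna9 (log2 fold change -1.20, SE 0.57; unadjusted p = 0.0468, adjusted p = 0.105) had an unadjusted p under 0.05 and did not pass. Without the 4 libraries numbered 2 at 24 h, Ocm (-2.15, adjusted p = 0.0378) and Slc26a5 (-1.50, adjusted p = 0.0238) passed here as well, so 4 of the 8 genes did, and 24.7% of all genes in that fit.

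**Figure D5:**
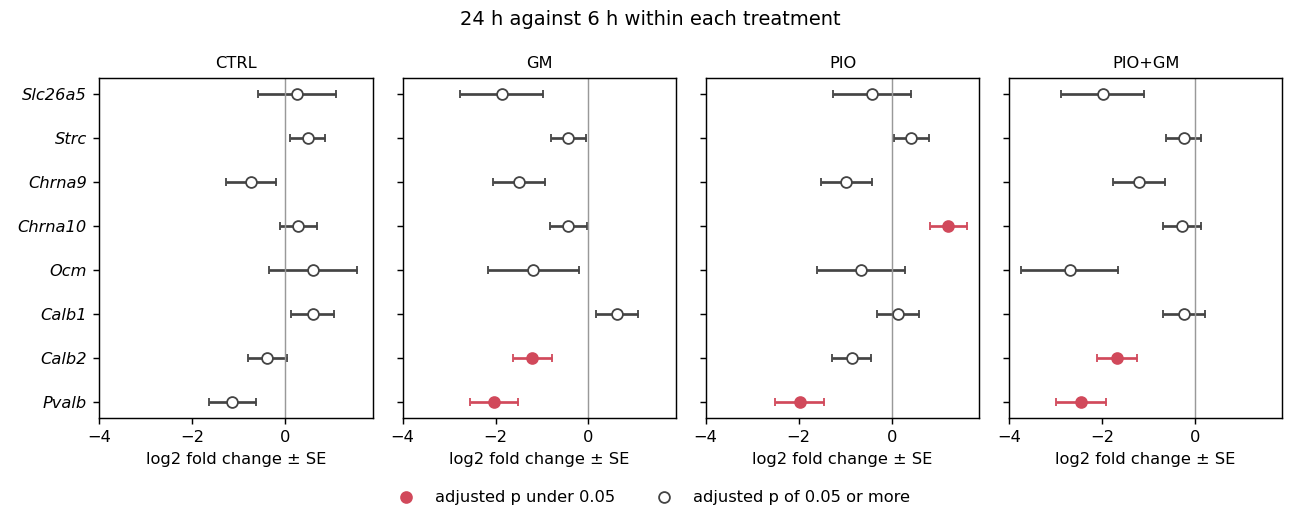
Log2 fold change of 24 h against 6 h with its standard error (SE) for the 8 genes within each treatment, 3 libraries at each time, with filled red points for an adjusted p under 0.05. Pvalb passes in GM, PIO and PIO+GM, Calb2 in GM and PIO+GM, and Chrna10, to the right of 0, in PIO.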

How the data were processed

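RNA of OC explants was sequenced from 24 libraries, 3 for each of 8 groups. The authors aligned single reads of 76 bases from stranded total RNA libraries with STAR (mm10, per the labels) and deposited counts, made with QuasR as the reads starting in RefSeq exons of a gene, neither normalized nor filtered. The use of strand is not given in the sources used here.

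Counts were tested in R 4.3.3 with edgeR 4.0.16 (TMM, filterByExpr, a mean for each group over all 24 libraries, quasi-likelihood F-test) and adjusted over 16317 genes by the Benjamini-Hochberg method. DESeq2 1.42.0, the likelihood ratio test, other scalings and filters, single time points, a replicate block and leaving out each library were alternatives. The block was library number at each time for drug comparisons, and library number for comparisons between times. Leaving out the 4 libraries numbered 2 at 24 h was added after the data were seen. SEs come from the F statistic, and CPM use TMM factors. On simulated counts for gentamicin against CTRL at 24 h (16014 genes), 96.3% of 109 genes changed by a log2 fold of 2 were recovered and 47.7% of 88 changed by 1. The simulation gave every gene the same spread and no effect of library number. These shares therefore do not hold for genes that spread more, such as Slc26a5 (SE 0.89 in the data) and Ocm (SE 0.99).

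Deviations from the group mean correlated above 0.1 between equally numbered libraries in all 3 pairs of CTRL and GM (correlations 0.43, 0.72 and 0.60) and of CTRL and PIO at 24 h (0.11, 0.56 and 0.23), so these are taken as paired, and not so in the other drug comparisons. The 8 genes and the gene lists were chosen with earlier results of these data known. All 8 genes are named, each with its fold change wherever its unadjusted p was under 0.05, along with the 3 genes of highest Pearson correlation for each and, for other lists, genes past the test or with the lowest p.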

Additional observations from a re-analysis of the deposited data

How the results depend on the processing

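Of the 27 fold changes with an unadjusted p under 0.05 in edgeR's fit without the block, 0 changed direction in 457 alternatives. They were chosen by that p and the alternatives refit mostly the same libraries, so a change of direction was unlikely from the start. The replicate block changed the count for gentamicin against CTRL at 24 h to 1, for PIO+GM against CTRL at 24 h to 4 (Slc26a5, adjusted p = 0.00549; Ocm, 0.0109; Strc, 0.0150; Chrna10, 0.0405; by edgeR) and for 24 h against 6 h in PIO+GM to 4, from 0, 0 and 2. Under the block 0.0735%, 1.94% and 36.1% of all genes passed in these comparisons. It moved none of the other 13 counts by over 1.5 times. For PIO+GM against CTRL at 24 h, DESeq2, the likelihood ratio test and the fit to the 12 libraries of that time point each gave 2 (1.61%, 1.38% and 1.74% of all genes). For 24 h against 6 h, no filter on low counts gave 1 in GM (13.8%). Without the 4 libraries numbered 2 at 24 h the counts were 1 in GM (16.2%) and 4 in PIO+GM (24.7%). Leaving out each library in turn gave 0 to 1 genes for PIO+GM against CTRL at 6 h (0.187% to 21.5% of all genes) and for time in CTRL (16.1% to 25.8%), 1 to 3 for time in GM (13% to 22.5%), 0 to 2 in PIO (16.3% to 36.4%), 2 to 3 in PIO+GM (20.8% to 36.6%) and 3 to 5 averaged (59.3% to 63.9%), and 0 in the other drug comparisons. The cause was not tested. Of the 457 alternatives for single genes, 32 lost a call and 26 gained it. Counts of the 8 genes were 10 or more in each library, except 3 for Ocm in 1, where its level is imprecise.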
